A study of Rattus norvegicus with 8 samples.

Results

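The S100 proteins are small calcium-binding proteins of vertebrates that carry a pair of EF-hands, the helix-loop-helix fold that holds a calcium ion. Most of them form dimers that open a hydrophobic face when calcium binds and then dock onto a target protein, so they act as calcium sensors without enzyme activity of their own, and some are secreted and act on receptors such as RAGE and TLR4. The semicircular canal duct (SCCD) is an epithelium of the inner ear that keeps up the ion composition of endolymph, and it absorbs calcium as well as sodium. Described here are 8 members of the family, S100a1, S100a4, S100a6, S100a8, S100a9, S100a10, S100a11 and S100b. Their probe sets were taken by gene symbol (from the array annotation, in its current form or as a synonym) and not by their signals, which gave 8 genes with 1 probe set each among the 15923 probe sets of the array, which name 10411 genes. RefSeq lists 20 protein-coding S100 genes in the rat, of which 15 had a probe set.

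Transcripts were measured in primary cultures of SCCD epithelium from neonatal (3 to 5 days) Wistar rats, grown on permeable supports, that received 100 nM dexamethasone, a synthetic glucocorticoid (n = 4), or were left untreated as control (n = 4), with 1 array per sample. The sources used here give neither the time of exposure for the arrays nor the number of animals behind each culture. For the electrophysiology the methods speak of paired cultures taken from 1 batch of canals, but for the arrays neither they nor the labels say whether same-numbered samples were paired, so a p-value here sets a difference against the spread among the samples, which may be technical.

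All 11 epithelial markers on the array, among them the keratin gene Krt18, had signals above the level of silent genes on all 8 arrays, whereas 0 of 2 hair cell markers did on any array. The level of silent genes is the 95th percentile, on each array, of 71 probe sets of genes that belong to other tissues, and it lay between 125 and 212. Replicates 1 and 2 had a deposited trimmed mean at the scaling target, and replicates 3 and 4 one of 202 to 336, so each array was rescaled by 1 factor, the largest being 2.48 for control replicate 3. Correlations between arrays were 0.953 to 0.983. The 3' to 5' signal ratio of beta-actin, a sign of how complete the labelled RNA was, was 6.17 to 8.07 with dexamethasone and 8.10 to 13.7 in control, without overlap between the groups, while that of GAPDH overlapped (2.14 to 3.18 with dexamethasone and 2.10 to 3.79 in control). With the beta-actin ratio as a covariate in the fit, 0.627% of all probe sets tested were called (65 of 10368), so the absence of S100 calls in that fit (0 of 6) says little about these genes. The 4 check genes known to be induced by glucocorticoids all passed the test with higher signals with dexamethasone (limma), with Sgk1 at 3.19, Tsc22d3 at 2.16, Fkbp5 at 2.14 and Per1 at 1.62 on the log2 scale.

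Dexamethasone changed none of the S100 transcripts past the test. Of the 8 probe sets, 6 had a mean signal high enough to be tested, and 0 of the 6 were called, against 2.69% of all 10368 probe sets tested (limma, Benjamini-Hochberg adjusted p under 0.05). The background called 1.88% higher and 0.810% lower with dexamethasone. None of the 6 had an unadjusted p under 0.05, against 16.1% of all probe sets tested, and in each of them the signals of the groups overlapped, while 1144 of the 10368 probe sets had groups apart. The 6 log2 fold changes ran between -0.32 and 0.06 with a median of -0.08, beside a median of -0.02 over all probe sets, and their median size without sign was 0.08, beside 0.16 over all probe sets. For S100a6, S100a10 and S100a11, the 95% interval of the difference lay within 1.3-fold in both directions, as it did for 20.0% of all probe sets. The intervals of S100a1 and S100b reached past 1.3-fold in both directions and that of S100a4 past a 1.3-fold fall only, so changes of that size were not excluded there. All these intervals come from the fit without the beta-actin ratio, which did not overlap between the groups, and do not cover its part. With that ratio as a covariate, the log2 fold change of S100a6 was 0.23. In cultures measured whole, fewer cells of a type and less RNA per cell cannot be told apart.

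**Figure D1:**
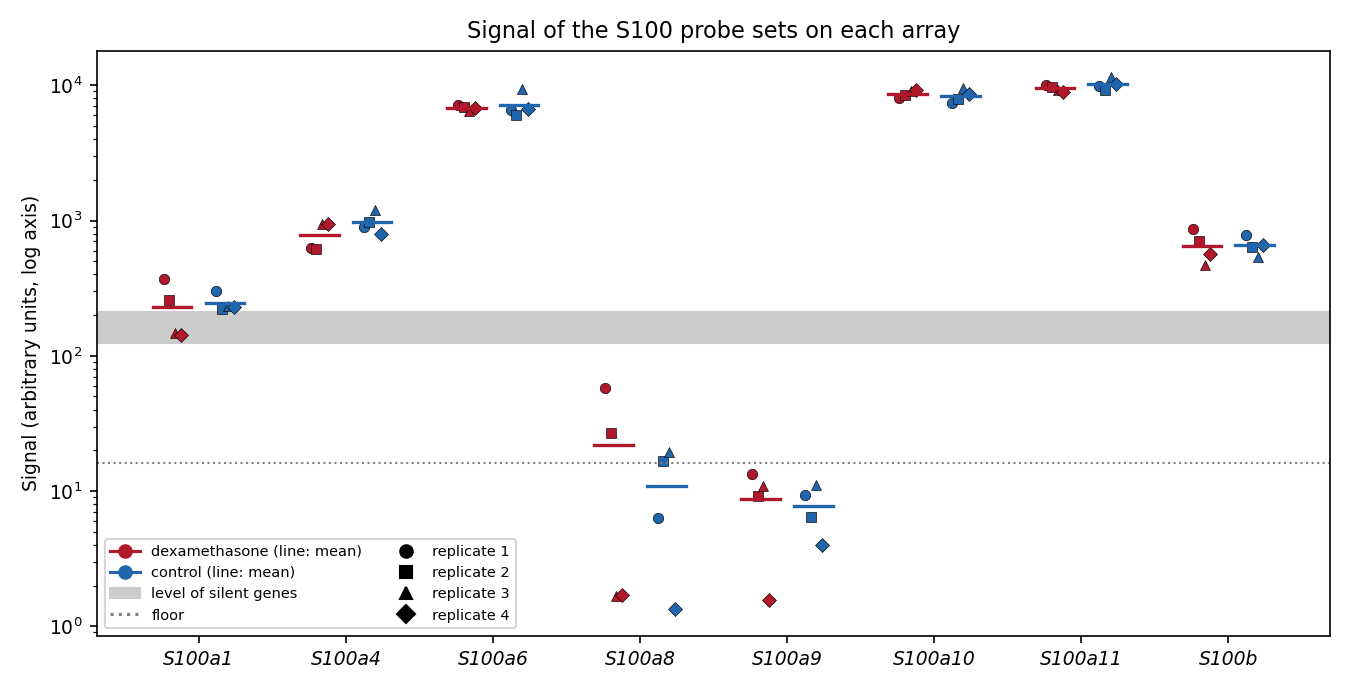
Rescaled signal (arbitrary units, log axis) of each S100 probe set on the 4 dexamethasone and 4 control arrays, with the group mean as a line, the range of the level of silent genes over the arrays as a grey band and the floor of 16 as a dotted line. S100a8 and S100a9 lie below the band on all 8 arrays, and in the other 6 genes the groups overlap; probe sets differ in brightness by design, so heights are read within a gene.

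S100a10 and S100a11 are members that bind annexins at membranes. S100a10, also called p11, is unusual in the family because it no longer binds calcium and is held in the target-binding shape, and with annexin A2 it forms a complex that brings channels to the cell membrane and binds plasminogen. Its signal was 8051, 8428, 9000 and 9226 on the dexamethasone arrays, against 7377, 7886, 9486 and 8688 on the control arrays. The dexamethasone arrays lay within the range of the control arrays. The log2 fold change was 0.06 (95% interval -0.14 to 0.25, SE 0.09, adjusted p = 0.811 from limma), and the coefficient of variation was 6.17% with dexamethasone and 11.1% in control.

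S100a11, or calgizzarin, pairs with annexin A1 and takes part in membrane repair and the control of growth in epithelial cells. Its signal was 10066, 9681, 9191 and 8969 on the dexamethasone arrays, against 9837, 9277, 11448 and 10301 on the control arrays. All 4 dexamethasone arrays lay below the control mean, but only 2 of them lay below every control array, so the groups overlapped. The log2 fold change was -0.11 (95% interval -0.28 to 0.07, SE 0.08, adjusted p = 0.573 from limma).

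S100a6, or calcyclin, binds the calcyclin-binding protein of the ubiquitin ligase machinery and is known from proliferating and epithelial cells. It gave 7129, 6949, 6447 and 6759 with dexamethasone, against 6602, 6074, 9407 and 6649 in control. Control replicate 3 stood above the other 7 arrays, and the coefficient of variation was 4.27% with dexamethasone and 21.0% in control. The log2 fold change was -0.05 (95% interval -0.32 to 0.21, SE 0.12, adjusted p = 0.874 from limma), and without control replicate 3 its sign turned, at 0.08. This array also held the highest signals of S100a4, S100a10 and S100a11, and it had the largest rescaling factor and the highest beta-actin ratio (13.7). Their part in these signals was not tested.

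S100a4 had the smallest p among the S100 genes. It is known as a marker of fibroblasts and of motile cells, where it binds the heavy chain of non-muscle myosin II. Its signal was 631, 616, 937 and 940 on the dexamethasone arrays, against 889, 972, 1206 and 802 on the control arrays. The pair from replicates 1 and 2 with dexamethasone lay below every other array, while the pair from replicates 3 and 4 lay among the control arrays. The means were 781 ± 182 with dexamethasone and 967 ± 174 in control (SD, n = 4 each). The log2 fold change over the 8 arrays was -0.32 (95% interval -0.71 to 0.07, SE 0.18, adjusted p = 0.419 from limma; exact permutation test, two-sided p = 0.229, where 4 arrays against 4 can reach 0.0286).

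Split by array set, meaning replicates 3 and 4, whose deposited signals were below the scaling target, or replicates 1 and 2, whose signals were at it, S100a4 differed by -0.07 within replicates 3 and 4 (adjusted p = 0.910 from limma) and by -0.58 within replicates 1 and 2 (adjusted p = 0.0374). Replicates 3 and 4 alone called 0.203% of all probe sets, and replicates 1 and 2 alone 4.24%. The difference between the sets was 0.51 and did not pass the test of the interaction (adjusted p = 0.787 from limma), so a fall of S100a4 in 1 set and not in the other was not shown. With the array set as a block, which called 5.57% of all probe sets, the adjusted p of S100a4 was 0.252. Over all alternative fits its adjusted p lay between 0.0374 and 0.9998. Its log2 fold change was -0.16 with the beta-actin ratio as a covariate and -0.16 with the signals as deposited. Leaving out 1 array gave -0.42 to -0.21, the smallest difference being without control replicate 3.

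Fibroblast genes were read beside S100a4, and those above the level of silent genes did not move together. Of the 6 tested, 4 had a negative log2 fold change and 2 a positive one, and none was called in the fit without a block. Col1a2, the alpha 2 chain of type I collagen, was at 704, 803, 1409 and 1479 with dexamethasone, against 1278, 1338, 1769 and 1935 in control. It was low on the same 2 dexamethasone arrays as S100a4, and its log2 fold change was -0.58 (limma, adjusted p = 0.261). With the array set as a block, Col1a2 had an adjusted p of 0.0139 from limma. Within replicates 1 and 2 it differed by -0.80 (limma, adjusted p = 0.00738). No other fibroblast gene tested was called in these 2 fits. Col1a2 correlated with S100a4 at r = 0.80, and at 0.70 with the mean of each array set removed. Col1a1, the alpha 1 chain of the same collagen, was at 837, 1190, 1772 and 1166 with dexamethasone, against 1049, 1124, 1091 and 1211 in control, with a log2 fold change of 0.10 (limma, adjusted p = 0.847). The other 4 log2 fold changes were 0.27 for Postn, -0.09 for Vim, -0.15 for Col3a1 and -0.20 for Fbn1, with adjusted p of 0.523 to 0.749 from limma. The summed signal of the 12 genes of the fibroblast list was 10003 to 14530 with dexamethasone and 12213 to 14787 in control. Of these genes 6 were above the level of silent genes on all 8 arrays and 6 on none. Their part in the S100a4 signal was not tested. Over the 8 arrays, the genes whose signals followed S100a4 most closely among 8696 probe sets were Lmnb1, which encodes lamin B1 (Pearson r = 0.965), the centriolar protein gene Ccp110 (0.963) and Gpi, which encodes a glycolytic enzyme (0.950). These points share the array and its scale, so the correlations are descriptions.

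**Figure D2:**
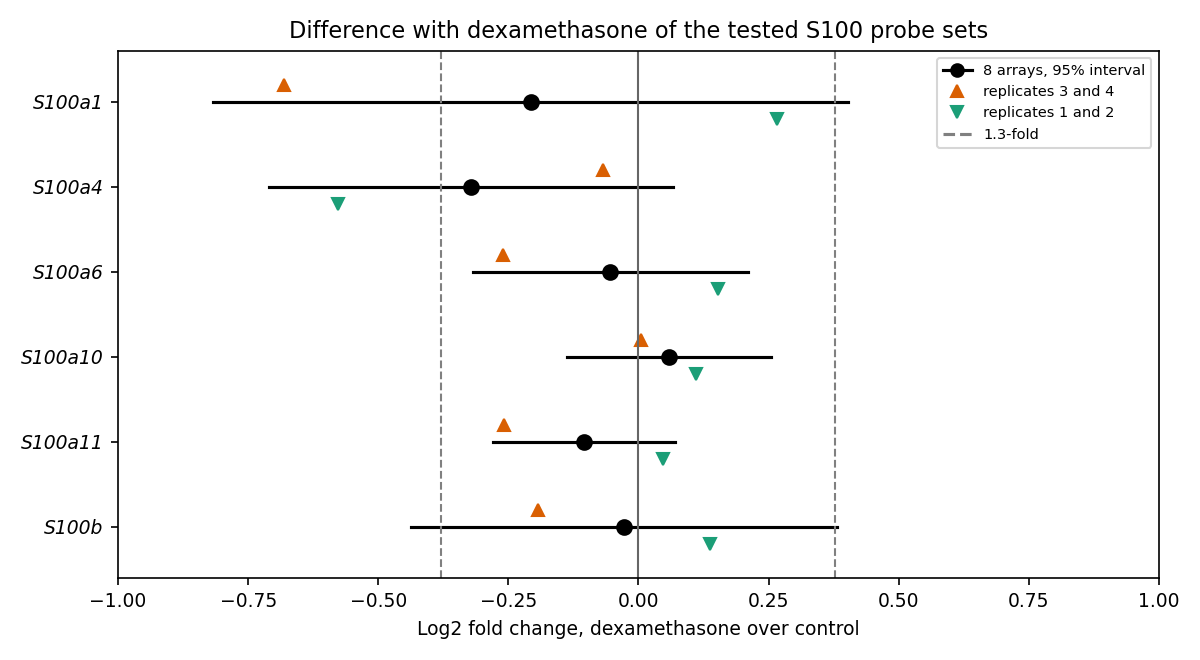
Log2 fold change, dexamethasone over control, of the 6 S100 probe sets tested (points, with the 95% interval from limma over 8 arrays), beside the difference within replicates 3 and 4 (upward triangles) and within replicates 1 and 2 (downward triangles); dashed lines mark 1.3-fold. All 6 intervals include 0, and those of S100a6, S100a10 and S100a11 stay between the dashed lines.

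S100a1 and S100b, the classic pair of the family, had a larger difference between the array sets than between the treatments, given as a description without a test. In size the same held on the log2 scale for S100a4 (0.34 between sets, -0.32 between treatments), S100a6 (0.11 and -0.05) and S100a10 (0.20 and 0.06). It did not hold for S100a11 (0.03 and -0.11). S100A1 is best known from heart and skeletal muscle, where it acts on the calcium pump and the release channel of the sarcoplasmic reticulum. Its signal was 369, 259, 146 and 143 on the dexamethasone arrays, against 300, 220, 234 and 229 on the control arrays. The dexamethasone arrays held both the highest and the lowest signals. The log2 fold change was -0.21 (95% interval -0.82 to 0.40, SE 0.28, adjusted p = 0.777 from limma), with -0.68 within replicates 3 and 4 and 0.27 within replicates 1 and 2. The interaction of -0.95 had an unadjusted p of 0.0168 and an adjusted p of 0.787 (limma), so this turn of sign did not pass the test. Leaving out 1 array also moved S100a1, to -0.48 without dexamethasone replicate 1, -0.03 without dexamethasone replicate 3, -0.02 without dexamethasone replicate 4 and -0.11 without control replicate 1. S100a1 was close to the level of silent genes: it exceeded the 95th percentile of those genes on all 8 arrays but their highest signal on 1 array.

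S100B is abundant in glia, and outside the nervous system it is a known marker of cartilage cells, melanocytes and Schwann cells. Its signal was 868, 704, 469 and 569 with dexamethasone, against 786, 642, 533 and 655 in control. The groups overlapped almost fully, and the means were 653 ± 173 with dexamethasone and 654 ± 104 in control (SD, n = 4 each). The log2 fold change was -0.03 (95% interval -0.44 to 0.38, SE 0.19, adjusted p = 0.967 from limma).

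Replicates 3 and 4 together were lower than replicates 1 and 2 by 0.62 in S100a1 and by 0.43 in S100b on the log2 scale, and higher by 0.34 in S100a4 and by 0.20 in S100a10. The cartilage collagen genes Col9a1 and Col2a1 differed between the same arrays. The summed signal of the 10 genes of the cartilage and bone list was 2830 to 3818 on replicates 3 and 4 and 5657 to 7478 on replicates 1 and 2. Most of that sum came from Col9a1 and Col2a1 on every array, so it says little about the other genes of the list. Within that list, Col9a1 (type IX collagen) was at 4191, 3039, 1916 and 1648 with dexamethasone, against 3782, 3070, 1393 and 1700 in control. Col2a1 (type II collagen) was at 2325, 1804, 1233 and 997 with dexamethasone, against 2126, 1842, 670 and 702 in control. Both were lower on every array of replicates 3 and 4 than on every array of replicates 1 and 2. Mean S100a1 signals of replicates 1 and 2, then 3 and 4, were 314 and 144 with dexamethasone, and 260 and 231 in control. As a description, Col9a1 correlated with S100a1 and S100b at r = 0.70 and 0.82, and at 0.14 and 0.39 with the mean of each array set removed. For Col2a1 the values were 0.51 and 0.66, and -0.45 and -0.20 with that mean removed. Lyz2, a gene of the macrophage and neutrophil list, followed both more closely. It correlated at 0.87 and 0.85, and at 0.71 and 0.56 with that mean removed. For the Schwann cell gene Sox10 the values were 0.39 and 0.66, and -0.42 and 0.08 with that mean removed. On the array, 3 of the 10 cartilage and bone genes were above the level of silent genes on all 8 arrays, 1 on some and 6 on none. Of the 8 Schwann cell and melanocyte markers, 1 was above it on all 8 arrays, 2 on some and 5 on none. The part of these cells in the S100b and S100a1 signals was not tested.

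**Figure D3:**
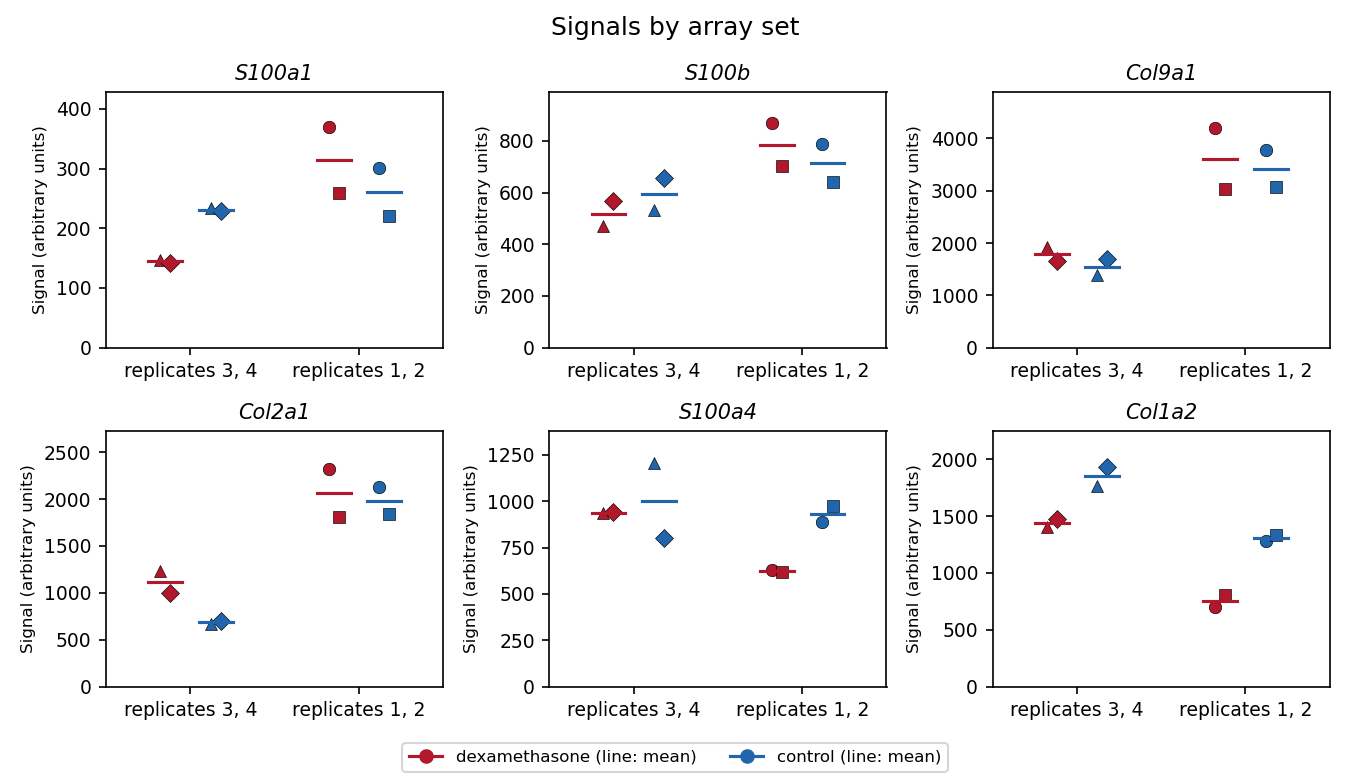
Rescaled signal (arbitrary units, linear axes from 0) of S100a1, S100b, Col9a1, Col2a1, S100a4 and Col1a2 on dexamethasone and control arrays, split into replicates 3 and 4 and replicates 1 and 2, with the mean of each pair as a line. Col9a1 and Col2a1 are lower on replicates 3 and 4 in both treatments, S100b is lower there in the mean of both treatments, and S100a4 and Col1a2 are lowest on the dexamethasone arrays of replicates 1 and 2.

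Across the 8 arrays, the signals of S100a1 and S100b correlated at r = 0.87 on the log2 scale, and at 0.72 once the mean of each array set was removed. S100a6 and S100a11 correlated at 0.84 with and without the array set. With the array set removed, the closest pair was S100a1 and S100a11, at 0.87, against 0.50 before. S100a10 and S100b ran against each other at -0.77, which shrank to -0.30 without the array set. With 8 arrays that share their scaling, these values describe the arrays and carry no test.

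S100a8 and S100a9, the subunits of calprotectin of neutrophils and monocytes, were not above the level of silent genes on any array. S100a8 read 57.8, 26.8, 1.66 and 1.71 on the dexamethasone arrays, against 6.30, 16.6, 19.6 and 1.34 on the control arrays. S100a9 read 13.4, 9.20, 10.9 and 1.55 on the dexamethasone arrays, against 9.30, 6.40, 11.1 and 4.02 on the control arrays. All 8 signals of S100a9 and 4 of S100a8 were under the floor of 16, so no fold change is given for either. The largest S100a8 signal, on dexamethasone replicate 1, came from the array with the highest signal of Lyz2, the lysozyme of macrophages and granulocytes. Lyz2 was at 3415, 969, 48.8 and 78.4 with dexamethasone, against 433, 351, 173 and 88.5 in control, so its groups overlapped. Cd14, a further gene of the macrophage and neutrophil list, ran the other way among the dexamethasone arrays, at 417, 379, 597 and 782. It was higher on dexamethasone replicates 3 and 4, where S100a8 and Lyz2 were low. On control replicates 1 and 2 it was at 291 and 338, below all 4 dexamethasone arrays. Of the 5 genes of this list tested, 0 were called, against 2.69% of all probe sets tested. The summed signal of the 13 macrophage and neutrophil genes on the array was 1446 to 5120 with dexamethasone and 1110 to 1786 in control. Of the 13, 1 was above the level of silent genes on all 8 arrays, 4 on some and 8 on none. Ptprc (CD45), which defines blood cells, lay between 28.1 and 52.7 over the 8 arrays, below that level on each. Their part in the S100a8 signal was not tested.

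Of the 8 genes, 7 lie on rat chromosome 2 and S100b on chromosome 20 (GRCr8). From S100a1 to S100a9, 11 protein-coding genes in a row belong to the family, so transcripts measured here, such as S100a4 and S100a6, stand in the same stretch as S100a8 and S100a9, which were not above the level of silent genes. S100a11 and S100a10 are neighbours farther along, and 8 copies or pseudogenes named after these genes are annotated, so a share of their signal from near-identical transcripts could not be assessed. Promoter sequences of 5 of the 8 genes were matched by symbol in RefSeq, while S100a1, S100a8 and S100a10 were not matched. The 60 bases before each start are shown, 5′ to 3′ on the gene's own strand, so that genes with and without signal can be set side by side. Capitals mark TATAA, the core of a TATA box, searched on the gene's strand alone. The stretches are chr2:178388469-178388528 (plus strand) for S100a4, chr2:178398477-178398536 (plus) for S100a6, chr2:178490623-178490682 (minus) for S100a9, chr2:181875072-181875131 (plus) for S100a11 and chr20:12381082-12381141 (minus) for S100b.
S100a4: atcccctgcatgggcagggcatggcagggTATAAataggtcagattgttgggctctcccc
S100a6: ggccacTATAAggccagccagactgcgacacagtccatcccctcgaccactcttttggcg
S100a9: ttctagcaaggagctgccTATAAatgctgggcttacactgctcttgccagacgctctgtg
S100a11: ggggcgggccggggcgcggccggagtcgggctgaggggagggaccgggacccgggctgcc
S100b: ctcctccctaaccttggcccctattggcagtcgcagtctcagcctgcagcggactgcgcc

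TATAA stood 31 bases before the start in S100a4, 42 bases before it in S100a9 and 54 bases before it in S100a6, and these letters were in the same window of 4.99% of 33469 rat promoters. S100a9, with them, was not above the level of silent genes, and S100a11, without them, was above it on all 8 arrays. Over 300 bases around the start, the dinucleotide CG occurred 18 times in S100a11, 15 times in S100a6, 5 times in S100a4 and in S100b, and 1 time in S100a9. The letters AGAACA or their reverse complement TGTTCT, which form each arm of a glucocorticoid response element, were in the 300 bases of 20.7% of all promoters and in 0 of these 5. The whole palindrome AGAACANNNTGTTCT was in 0.0149% of all promoters and in 0 of the 5. A match is a description of letters, and so is its absence from this window.

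None of the other S100 genes tested was called over the 8 arrays. The family list adds epidermal proteins with an S100 domain and had 8 further genes on the array. Of these, 4 were tested, 0 were called and all 4 log2 fold changes were negative, with a median of -0.26. Over all 10368 probe sets tested, 5606 log2 fold changes were negative and 2.69% were called. S100a14, an epithelial member, read 1365, 884, 2071 and 2923 with dexamethasone, against 1440, 1873, 2541 and 3110 in control. Its groups overlapped, with a log2 fold change of -0.39 (SE 0.33, adjusted p = 0.621 from limma), and -0.32 (adjusted p = 0.510) in a further probe set of the gene. Without dexamethasone replicate 2 it was -0.09, without dexamethasone replicate 4 it was -0.66 and without control replicate 4 it was -0.21. Within replicates 1 and 2, the further probe set differed by -0.69 (limma, adjusted p = 0.00738) and the first by -0.58 (adjusted p = 0.160). Within replicates 3 and 4 the further probe set differed by 0.06 (limma, adjusted p = 0.943). Its interaction with the array set did not pass the test (adjusted p = 0.787 from limma). S100a13, which helps release growth factors that lack a signal peptide and has S100A1 among its older names, had a log2 fold change of -0.38 (SE 0.22, adjusted p = 0.453 from limma). S100a16 and S100a3 had log2 fold changes of -0.06 and -0.13, with adjusted p of 0.863 and 0.745 from limma. Both turned positive with the signals as deposited and with the beta-actin covariate. S100g, or calbindin-D9k, which ferries calcium across absorptive epithelia, read 33.7 to 79.3 with dexamethasone and 38.9 to 64.9 in control, not above the level of silent genes on any array.

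Among 28 partners and receptors of S100 proteins on the array, 21 were tested, 0 were called higher and 1 lower. Over all probe sets tested, 1.88% were called higher and 0.810% lower. The median log2 fold change of the partners was -0.005. The partner called was Plau, the urokinase that cleaves plasminogen, which the complex of S100A10 with annexin A2 binds at the cell surface. Its signal was 272, 346, 385 and 237 with dexamethasone, against 456, 519, 501 and 850 in control. Every dexamethasone array was below every control array, and the log2 fold change was -0.89 with an SE of 0.21 (limma, adjusted p = 0.0488). The fall lay just inside the threshold: leaving out any 1 array other than dexamethasone replicate 3 gave adjusted p of 0.0507 to 0.129, while the log2 fold change was -0.69 or lower each time. Over all alternative fits the adjusted p of Plau lay between 0.0319 and 0.9998.

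The annexins, which bind S100 dimers at membranes, did not pass the test. Anxa2, the partner of S100a10, read 8642, 8803, 9609 and 10835 with dexamethasone, against 8600, 9462, 13048 and 10919 in control, and its log2 fold change was -0.14 with an SE of 0.12 (limma, adjusted p = 0.644). Anxa1, the partner of S100a11 and itself a gene known from glucocorticoid action, had a log2 fold change of 0.10 (SE 0.07, 95% interval -0.05 to 0.25, adjusted p = 0.546 from limma). Anxa5 was higher on all 4 dexamethasone arrays, at 7079 to 7708, than on the control arrays, at 6440 to 7064, with a log2 fold change of 0.13 that did not pass the test (adjusted p = 0.389 from limma). Anxa11, a further partner, had 0.31 (adjusted p = 0.423 from limma). Ctsb, which encodes a lysosomal protease, and Atp2a2, the calcium pump SERCA2, had log2 fold changes of 0.10 and -0.14, with adjusted p of 0.618 and 0.594 from limma. Further tested probe sets of Atp2a2 gave -0.10 and 0.11, with adjusted p of 0.814 and 0.788 from limma. Of the receptors for secreted S100 proteins, Ager (RAGE) lay at 30.9 to 107 with dexamethasone and 24.8 to 45.6 in control and was not above the level of silent genes on any array. Tlr4 was above that level on 1 of 8 arrays.

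Calcium binding by EF-hands is shared by many proteins outside the S100 family, and 23 of 30 such genes on the array were tested. Of these, 2 were called higher with dexamethasone and 0 lower, beside 1.88% higher and 0.810% lower over all probe sets tested. The median log2 fold change of the 23 was 0.06. Ppp3r1, the regulatory subunit B of calcineurin, read 1694, 1713, 1634 and 1632 with dexamethasone, against 1056, 1008, 848 and 920 in control. The groups were far apart relative to their spread, and the log2 fold change was 0.81 with an SE of 0.10 (limma, adjusted p = 0.00128). Nucb2, nucleobindin 2, a Golgi and secreted protein, averaged 5828 ± 490 with dexamethasone and 4017 ± 356 in control (SD, n = 4 each), a log2 fold change of 0.54 (SE 0.09, adjusted p = 0.00896 from limma). For both, every dexamethasone array was above every control array.

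**Figure D4:**
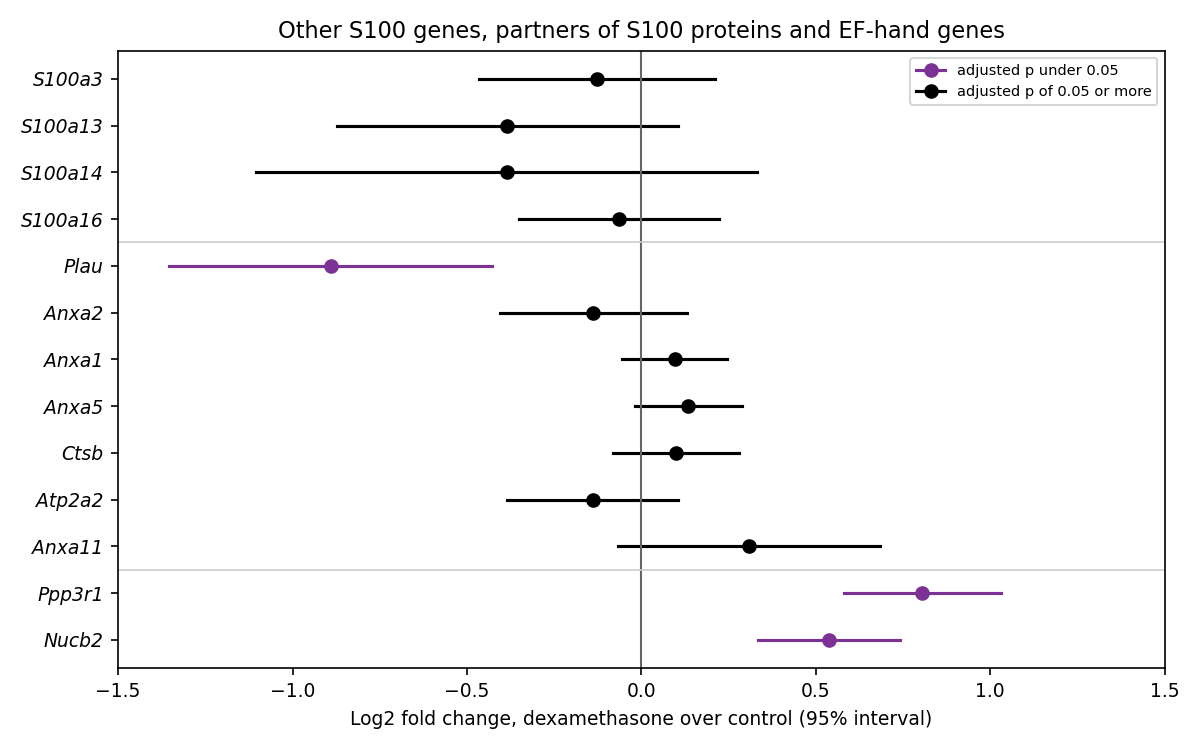
Log2 fold change, dexamethasone over control, with the 95% interval (limma, 8 arrays), of other S100 genes (top), partners of S100 proteins (middle) and other EF-hand genes (bottom); purple marks an adjusted p under 0.05. Plau is lower with dexamethasone, Ppp3r1 and Nucb2 are higher, and the intervals of the other 10 genes include 0.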

How the data were processed

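Total RNA of 4 dexamethasone-treated and 4 control SCCD cultures was amplified and labelled by the authors in 2 rounds of in vitro transcription and put on the A series of the Affymetrix rat arrays. The authors deposited signal intensities on a linear scale, made with the Affymetrix statistical algorithms and scaled to a target of 500 per the labels. The table used here holds 15923 probe sets, of which 57 are controls, and no detection calls.

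Each array was rescaled to a trimmed mean of 500 (2% trimmed from each tail), a floor of 16 was applied and the signals were put on the log2 scale. Of 15866 probe sets that are not controls, the 10368 with a mean signal of 100 or more were tested with limma 3.58.1 in R 4.3.3 (lmFit, eBayes with a mean-variance trend, two-sided, Benjamini-Hochberg adjustment over all probe sets tested). The annotation gives 1 symbol to 12783 probe sets, several to 312 and none to 2771. The fit was tested on simulated data. The number of arrays limits the precision.

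The S100 genes and the gene lists were chosen with earlier results of these data known. Genes named by rule were the S100 members, list genes past the test, the 5 further partners with the highest mean signals, and the 3 genes most like S100a4. The other S100 genes, Anxa11, Ager, Tlr4, Krt18, Ptprc, Lyz2, Cd14 and the fibroblast and cartilage genes were named after their values had been seen. Alternatives covered scaling, filter, floor, trend, blocks, array sets, a beta-actin covariate and leaving out each array. The interaction of treatment with array set, and the alternatives for genes other than the S100 members, were chosen after seeing the data.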

Additional observations from a re-analysis of the deposited data

Results flagged for a closer look

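Among 64 groups of 4 arrays (32 probe sets of the S100 genes and of genes named beside them), 1 held an array far from the others, where chance flags about 5% of groups. Krt18, the epithelial keratin, was at 13057 on control replicate 3, against 9507 to 10032 on the other 3 control arrays, and the gap made up 0.830 of the range of the control group on the log2 scale, just past the critical value for 4 arrays. Krt18 was lower with dexamethasone by limma, with a log2 fold change of -0.47 (adjusted p = 0.0300), and every dexamethasone array (7138 to 7925) lay below every control array. Without any 1 of the dexamethasone replicates the call was lost, at adjusted p of 0.0593 to 0.0974.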

How the results depend on the processing

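The count of S100 probe sets called was 0 under 21 of 22 alternatives and 1 with replicates 1 and 2 only, where S100a4 passed at -0.58, and leaving out each array in turn gave 0 to 0. The count over all probe sets, 279, was 38 with the signals as deposited (34 higher and 4 lower, where the median of all log2 fold changes was 0.14), 102 with no filter, 578 with the array set as a block, 440 with replicates 1 and 2 only, 21 with replicates 3 and 4 only and 65 with the beta-actin ratio as a covariate, and 180 to 275 when each array was left out. The cause of these shifts was not tested.

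The replicate number as a block gave 484 calls over all probe sets and 0 S100 calls. Deviations of same-numbered samples correlated at 0.35, 0.25, 0.03 and 0.41, control replicates 3 and 4 correlated best with another number, and 1 of the 4 values is under 0.1, so pairing by number was not established. Samples of the same array set mostly correlated positively and samples of different sets mostly negatively.

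Among the S100 genes and the genes named beside them that were refitted, directions turned for uncalled genes alone. With the signals as deposited they were 0.11 for S100a6, 0.058 for S100a11, 0.14 for S100b, 0.036 for S100a3, 0.099 for S100a16, 0.026 for Anxa2 and 0.023 for Atp2a2. With replicates 1 and 2 only they were 0.27 for S100a1, 0.15 for S100a6, 0.047 for S100a11, 0.14 for S100b and 0.046 for Atp2a2. With the beta-actin covariate they were 0.23 for S100a6, 0.043 for S100a11, 0.030 for S100a3, 0.070 for S100a16 and 0.069 for Anxa2. The median of the 16 array ratios was 0.049 for S100a6. Leaving out each array gave -0.13 to 0.083 for S100a6, -0.18 to 0.12 for S100b, -0.48 to -0.02 for S100a1, -0.42 to -0.21 for S100a4, -0.66 to -0.09 for S100a14 and -0.16 to 0.0076 for S100a16. S100a10 kept its sign in all 23 alternatives, but leaving out each array gave 0.0002 to 0.12, so a rise was not shown. The fall of Plau lost its call in 16 of 22 and that of Krt18 in 10, the rise of Nucb2 in 4 and that of Ppp3r1 in 2. Among the check genes, Per1 lost its call in 3 of 21 and Fkbp5 in 1 of 22, while Sgk1 and Tsc22d3 kept theirs. A mean signal of at least 250 left S100a1 untested. The highest silent signal as the level left 5 of 8 S100 genes above it on all arrays, in place of 6.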
